A study of Mus musculus with 6 samples.

Results

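The genes described here encode digestive proteins of the pancreatic acinar cell and were followed in embryonic pancreas before acinar cells have formed. They are 9 genes chosen by name: the proteases and their precursors carboxypeptidase A1 (Cpa1), chymotrypsinogen B1 (Ctrb1), elastase 1 (Cela1) and trypsinogen (Prss1), the lipases Pnlip and Cel, the lipase cofactor colipase (Clps), the amylase Amy2a5, and Spink1, a secreted inhibitor of trypsin. All 9 were among the 31028 gene symbols of the single-cell RNA table. Of the 8269 gene symbols of the single-cell chromatin accessibility (ATAC) tables, 6 were members: Cpa1, Clps, Cel, Ctrb1, Cela1 and Spink1. Prss1, Pnlip and Amy2a5 have RNA values only.

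The 6 libraries came from C57BL/6 mouse embryos of 2 genotypes. Ptf1a+/+ embryos are called WT. Ptf1aenh-delta/enh-delta embryos, called KO here as in the sample titles, carried an enhancer deletion of Ptf1a on both alleles. At embryonic day 10.5 (E10.5) hand-dissected multipotent progenitor tissue of 5 to 9 embryos was pooled for each dataset, and gave 1 RNA and 1 ATAC library per genotype. At E13.5 the pancreases of 6 embryos were pooled per dataset for 1 ATAC library per genotype. With 1 library per group there is no replicate spread, so no test was possible and no p-value is given. Intervals are 95% intervals and cover counting error only.

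In the adult pancreas the acinar cells make and store digestive enzymes and release them into the ducts as inactive precursors. Ptf1a is a basic helix-loop-helix factor that binds DNA as a trimer with a ubiquitous E-protein partner and with Rbpj or Rbpjl. This trimer, PTF1, recognises an E-box and a nearby TC box in the promoters of many acinar enzyme genes. In the early pancreatic bud Cpa1 is a known marker of multipotent tip progenitors, whereas most other enzymes rise later, as acinar cells mature.

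Promoter sequences were taken from a RefSeq promoter table (GRCm38.p6), in which 7 of the 9 genes were matched, all but Clps and Spink1. Cpa1 and Cela1 are shown because they had the largest RNA differences among members with an entry. Ctrb1 is shown as a gene with 1 RNA UMI in the 2 libraries together, and was picked after its values were seen. Each sequence is the 250 bases before the start site on the gene's strand, 5′ to 3′, with E-boxes (CANNTG) and TC boxes (TTCCCA, or TGGGAA on the other strand) in capitals. The Cpa1 sequence is chr6:30638968-30639217 on the plus strand, the Ctrb1 sequence chr8:111691011-111691260 on the minus strand, and the Cela1 sequence chr15:100687921-100688170 on the minus strand.
Cpa1: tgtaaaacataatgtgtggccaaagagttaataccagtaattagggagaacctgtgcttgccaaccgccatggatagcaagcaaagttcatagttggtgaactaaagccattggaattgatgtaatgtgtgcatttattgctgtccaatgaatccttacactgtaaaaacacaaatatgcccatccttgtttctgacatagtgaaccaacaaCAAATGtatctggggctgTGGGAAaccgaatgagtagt
Ctrb1: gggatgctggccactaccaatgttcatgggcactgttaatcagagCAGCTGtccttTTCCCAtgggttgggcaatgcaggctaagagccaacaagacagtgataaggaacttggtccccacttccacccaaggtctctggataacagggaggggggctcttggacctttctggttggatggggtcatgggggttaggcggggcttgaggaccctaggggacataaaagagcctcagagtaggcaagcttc
Cela1: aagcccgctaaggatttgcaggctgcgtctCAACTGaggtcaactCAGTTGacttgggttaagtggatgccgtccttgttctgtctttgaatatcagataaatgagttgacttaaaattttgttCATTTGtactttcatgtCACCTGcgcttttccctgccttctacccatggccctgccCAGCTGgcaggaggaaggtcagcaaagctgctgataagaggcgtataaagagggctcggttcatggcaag

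With the start site counted as 1 and no base counted as 0, the Cpa1 promoter held a TC box at -20 and an E-box at -38. It held 2 more E-boxes in the 50 bases from the start site on, at 3 and 23. In 2 of these pairs an E-box and the TC box began within 30 bases of each other, and the closer pair began 18 bases apart. Ctrb1 held 1 E-box at -205 and 1 TC box at -194, which began 11 bases apart. Cela1 held 5 E-boxes and 0 TC boxes. Cel and Prss1 each held a pair, with starts 22 and 17 bases apart, Pnlip held a TC box alone and Amy2a5 an E-box alone. Over the 32851 promoters of the same 300-base length, 72.3% held an E-box, 25.6% a TC box, 19.0% both, and 7.20% both within 30 bases. A pair was therefore present in the promoters of 4 of the 7 members with an entry, of which 3 (Cel, Ctrb1 and Prss1) had almost no RNA at E10.5, as given below. A match is a run of letters and no evidence of binding.

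**Figure D1:**
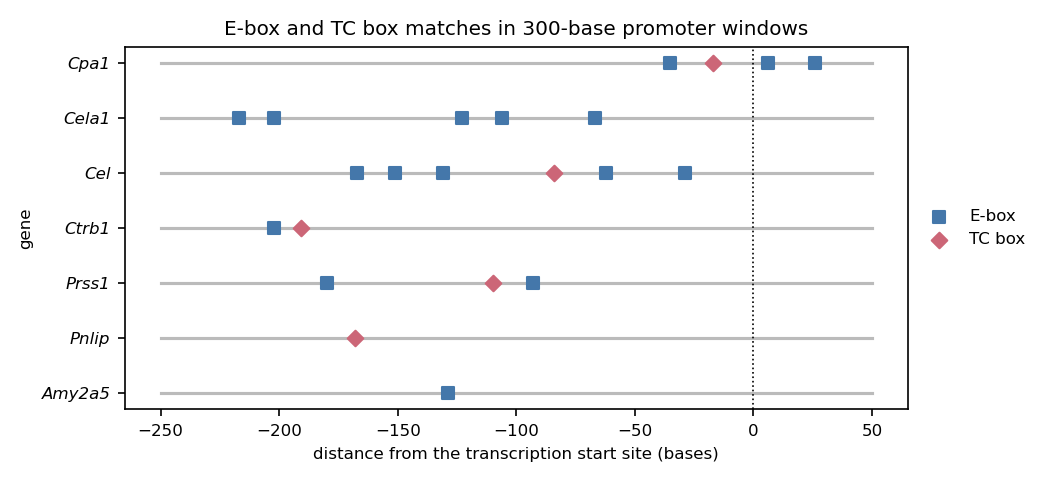
Positions of E-box (squares) and TC box (diamonds) matches in the promoter windows of 7 members, as the distance in bases from the transcription start site (dotted line, at 0); each grey line is a 300-base window. Cpa1, Cel, Ctrb1 and Prss1 have an E-box and a TC box close together, and Cela1 has 5 E-boxes and no TC box.

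By RefSeq (GRCm38.p6), Cpa1 spans chr6:30639218-30645361 with 10 exons and Prss1 chr6:41458930-41463786 with 5 exons, both on the plus strand. Clps lies at chr17:28558210-28560766, Cel at chr2:28555819-28563403, Ctrb1 at chr8:111686510-111691010 and Cela1 at chr15:100674422-100687920, all on the minus strand. The submitters' processing notes name mm10.

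The RNA libraries held 4665222 UMIs (unique molecule counts) in 1104 WT barcodes and 4360076 in 815 KO barcodes. Cells with 1000 or more detected genes were kept, which left 451 WT cells with a median of 6700 UMIs and 369 KO cells with a median of 9856. The 2 RNA libraries shared 1 barcode sequence. The cells were clustered without the members, the other acinar genes and Ptf1a, and clusters were named only from marker lists. Clusters 3 (58 WT and 36 KO cells) and 6 (50 and 2) were pancreatic progenitor-like, 1 (46 and 98) and 7 (13 and 30) endocrine-like, 0 (153 and 101) and 4 (28 and 46) mesenchyme-like, and 5 (22 and 37) hepatobiliary-like. Cluster 2 (81 and 19) had Ube2c, Sox17 and several histone genes on top and was given no name. Cluster 3 had the highest progenitor score and is the progenitor cluster below, and its top 10 genes held Nkx6-2 and Pdx1 of the progenitor list and as many genes, Spp1 and Onecut2, of the hepatobiliary list. Cluster 4 was the deepest, with a median of 20323 UMIs, and carried endocrine RNA beside its mesenchyme genes: of its 74 cells, 61 had a Chga UMI and 46 a Barx1 UMI, and 5 were called doublets.

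Ptf1a RNA was checked first. The WT library held 142 Ptf1a UMIs in kept cells and the KO library 0, which is at least 46.2-fold lower when 3 UMIs are taken as the limit a count of 0 allows. In WT the Ptf1a UMIs were in clusters 3 (66), 6 (42), 2 (18) and 0 (16), and clusters 1, 4, 5 and 7 held 0.

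Cpa1 had the most RNA of the 9 members over both WT progenitor-like clusters, followed by Clps, and its RNA was nearly absent from the KO library. Over all kept cells WT had 526 Cpa1 UMIs, a level of 128 CPM (UMIs scaled to a common library total, interval 117 to 140), and KO had 3, or 0.748 CPM (0.154 to 2.19). The KO over WT ratio was 0.00584 (0.00120 to 0.0172). On the log2 scale with 10 CPM added to each level the difference was -3.68, the lowest of 10367 genes with 50 or more UMIs in both libraries together. Of these genes 0.27% were lower in KO by 2-fold or more. Without the cell filter the counts were 536 and 3.

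By cell type, WT Cpa1 was highest in the 2 progenitor-like clusters. It stood at 268 CPM (235 to 304) in cluster 3 and 211 CPM (174 to 253) in cluster 6, 2 levels whose intervals overlap. The unnamed cluster 2 followed at 153 CPM (116 to 199), which overlaps cluster 6 and not cluster 3. Clusters 5, 0, 1 and 4 held 74.3, 60.1, 48.5 and 38.0 CPM, each overlapping the next, and the hormone-rich endocrine-like cluster 7 held 0 UMIs in 13 cells, which allows up to 15.8 CPM. Both progenitor-like clusters together took 68.1% of the WT Cpa1 UMIs. Per cell, Cpa1 in these 108 WT cells ran from 0 to 23 UMIs with a median of 2, and 30 cells had 5 or more.

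Cpa1 was low or at 0 in every KO cluster, of which cluster 6 had 2 cells only. KO clusters 0, 1 and 5 held 1 UMI each, and KO clusters 2, 3, 4, 6 and 7 held 0. In cluster 3 the counts were 244 against 0, at least 55.9-fold lower in KO, with a UMI in 43 of 58 WT cells and 0 of 36 KO cells. In the mesenchyme-like cluster 0, 18 of 153 WT cells had a Cpa1 UMI. The WT cells of this cluster also held 16 Ptf1a UMIs and UMIs of all 14 progenitor markers. The WT barcodes below the filter held 10 Cpa1 UMIs, or 17.9 CPM. The source of the Cpa1 RNA in cluster 0 was not tested. After each cell was thinned to 2000 UMIs, 34.5% of WT cells in cluster 3 had a Cpa1 UMI (22.5 to 48.1), against 7.84% in cluster 0 (3.45 to 14.9). Thinning left out 51 WT and 39 KO cells of cluster 0, and 0 WT and 1 KO cell of cluster 3.

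**Figure D2:**
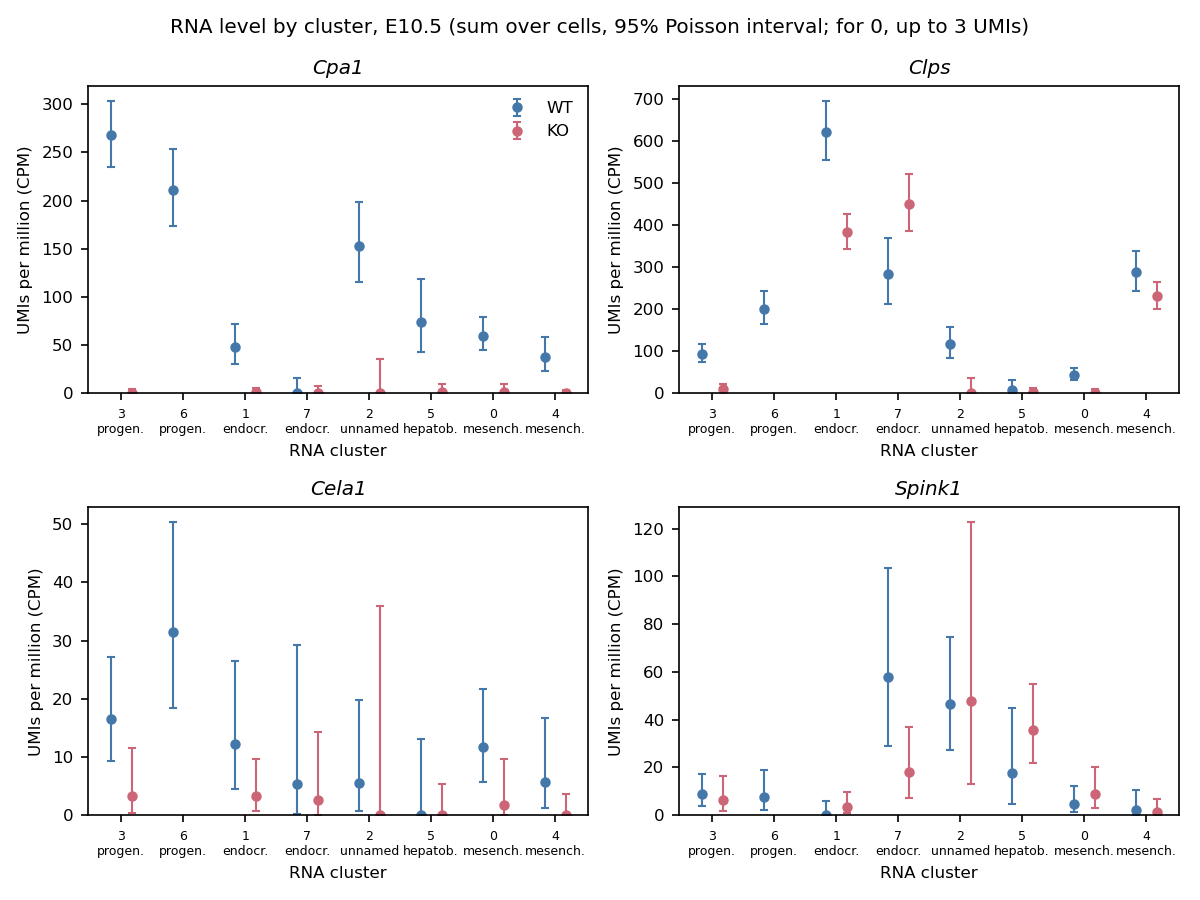
RNA level of Cpa1, Clps, Cela1 and Spink1 at E10.5 (CPM, vertical axis) in the 8 clusters (horizontal axis), WT in blue and KO in red, 1 library each; points are sums over cells, bars are 95% Poisson intervals, and bars of zero counts reach 3 UMIs. The 2 KO cells of cluster 6 are not drawn. Cpa1 is at or near 0 in every KO cluster, while Clps stays high in the KO cells of clusters 1, 7 and 4.

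Clps RNA was present in the WT progenitor-like cells beside Cpa1, but its highest levels were in the endocrine-like cells. Over all kept cells WT had 792 Clps UMIs, 193 CPM (180 to 207), and KO 734, or 183 CPM (170 to 197), a KO over WT ratio of 0.949 (0.857 to 1.05). The near-equal totals hid different levels by cell type. In the progenitor cluster 3 the counts were 86 in WT (94.4 CPM) and 7 in KO (11.2 CPM), a ratio of 0.119 (0.0463 to 0.255), and in cluster 2 they were 43 and 0. In WT cluster 6 there were 109 Clps UMIs, or 202 CPM (166 to 243), which overlaps the interval of Cpa1 there, and the 2 KO cells do not allow a comparison.

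The endocrine-like cells carried most of the Clps RNA in KO. Cluster 1, with Neurog3 and Fev among its top genes, had 308 UMIs in WT (623 CPM, 555 to 696) and 352 in KO (383 CPM, 344 to 426). Cluster 7, with hormone genes such as Ghrl and Ins1, had 54 in WT (284 CPM, 213 to 371) and 176 in KO (450 CPM, 386 to 522). The KO level was thus lower in cluster 1, by a ratio of 0.616 (0.527 to 0.720), and higher in cluster 7, by 1.59 (1.16 to 2.19), and neither reached 2-fold. Cluster 4, with its endocrine RNA, had 152 and 196 Clps UMIs, or 289 and 231 CPM. The endocrine-like clusters held 45.7% of the WT and 71.9% of the KO Clps UMIs, and 59 of 451 WT and 128 of 369 KO kept cells.

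Without the endocrine-like clusters and cluster 4, a subset chosen after the values were seen, Clps stood at 278 UMIs in WT and 10 in KO, a ratio of 0.0561 (0.0266 to 0.105). Its log2 difference there was -2.78, and 0.443% of 8583 genes were lower by 2-fold or more. The clusters left out had the highest KO Clps levels, so a low ratio in the rest follows partly from that choice. Cluster 6, with 50 WT and 2 KO cells, gave 109 of the 278 WT UMIs. In the thinned cells Clps had a UMI in 29 of 58 WT endocrine-like cells (36.6% to 63.4%) and 59 of 127 KO ones (37.6% to 55.5%), at 2000 UMIs each. In WT cluster 3 the thinned share was 15.5% (7.35 to 27.4) and in KO 0 of 35 cells. Mesenchyme-like cluster 0 held 38 Clps UMIs in WT (44.7 CPM, 31.7 to 61.4, in 12 of 153 cells) and 1 in KO (101 cells). Whether these UMIs came from free RNA was not tested. Barcodes below the filter held 17 in WT (30.4 CPM) and 5 in KO (14.4 CPM). Both levels were higher in WT than in KO. The thinned share in WT cluster 0 was 5.88% (2.19 to 12.4), an interval that overlaps that of WT cluster 3. The part of free RNA in the Clps difference outside the endocrine-like cells was not tested either.

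**Figure D3:**
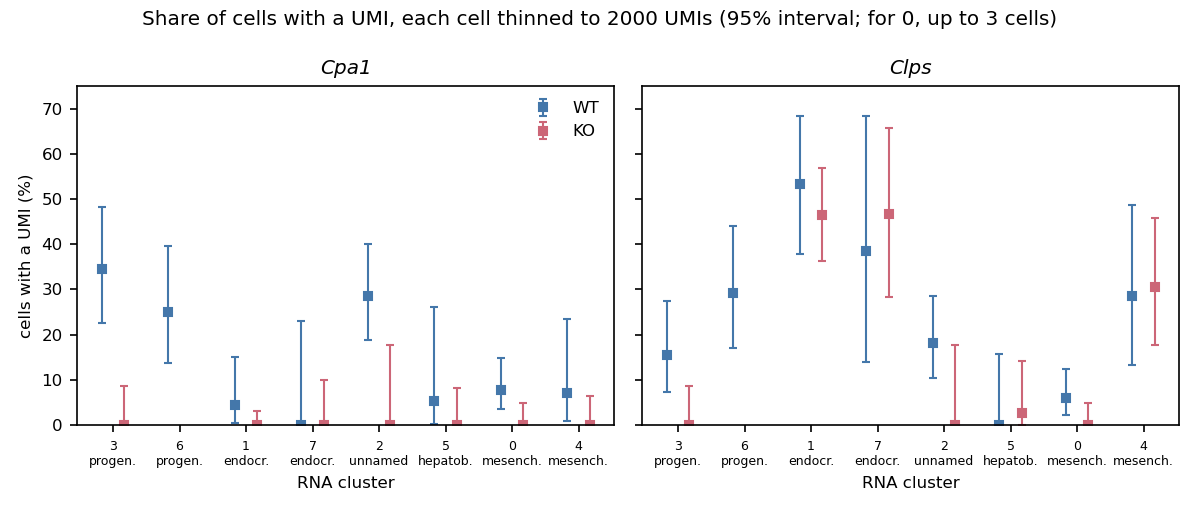
Percent of cells with at least 1 Cpa1 or Clps UMI after thinning each cell to 2000 UMIs (vertical axis), by cluster (horizontal axis), WT in blue and KO in red, 1 library each; bars are 95% exact binomial intervals, and bars of zero shares reach 3 cells. In cluster 3 the WT shares are 34.5% for Cpa1 and 15.5% for Clps and both KO shares are 0, while in cluster 1 the Clps shares are 53.3% and 46.4%.

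As sequenced, Cpa1 and Clps were detected together in more WT progenitor-like cells than the product of their shares gives. Of the 108 cells 80 had Cpa1, 55 had Clps and 47 had both, where the product of the 2 shares gives 40.7. Ptf1a was in 62 cells, and 49 had Ptf1a and Cpa1, where the product gives 45.9. After thinning to 2000 UMIs, 32 of 106 cells had Cpa1, 23 had Clps and 6 had both (product 6.94), and 19 had Ptf1a and 6 had it with Cpa1 (product 5.74). The cells as sequenced differ in depth, and the thinned overlaps are too small to tell from their products. Whether these genes go together by cell was not tested. In the 59 WT endocrine-like cells 0 had Ptf1a, 6 had Cpa1 and 55 had Clps, and 48 of the Clps cells also had Chga, a granin of endocrine secretory granules.

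Cela1 RNA was low, with its highest WT level in the progenitor-like cluster 6. WT kept cells had 54 Cela1 UMIs, 13.1 CPM (9.88 to 17.2), and KO cells 7, or 1.75 CPM (0.702 to 3.60), a ratio of 0.133 (0.0509 to 0.293). The log2 difference was -0.98, just short of 2-fold on the scale with 10 CPM added, and it passed 2-fold with 1 CPM added (-2.37). WT Cela1 was highest in cluster 6, at 31.5 CPM (18.3 to 50.4), then in cluster 3 at 16.5 CPM (9.22 to 27.2), with overlapping intervals. The level in cluster 3 also overlapped those in the endocrine-like cluster 1, at 12.1 CPM (4.45 to 26.4), and the mesenchyme-like cluster 0, at 11.8 CPM (5.65 to 21.7). In cluster 3 there were 15 UMIs in 11 of 58 WT cells and 2 UMIs in 2 of 36 KO cells, a ratio of 0.194 (0.0215 to 0.835). The log2 difference, just past 2-fold lower, fell just short of it without called doublets (-0.99) and turned to 0.38 in the thinned cells, which hold too few Cela1 UMIs to read a direction.

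Spink1 did not follow the enzymes. Its counts were 49 in WT (11.9 CPM, 8.83 to 15.8) and 44 in KO (11.0 CPM, 7.97 to 14.7), a ratio of 0.919 (0.598 to 1.41). In WT it was highest in clusters 7 and 2, at 57.8 CPM (28.9 to 104) and 46.5 CPM (27.1 to 74.4), and the progenitor cluster 3 held 8.78 CPM (3.79 to 17.3). In KO the levels were 17.9 CPM in cluster 7, 47.9 CPM in cluster 2 and 35.6 CPM (21.7 to 55.0) in the hepatobiliary-like cluster 5, where 20 of its 44 UMIs lay. Only 11 and 7 UMIs stood behind the cluster 7 values, with a ratio of 0.310 (0.102 to 0.875).

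The other 5 members had almost no RNA in either genotype. Cel, the bile salt-activated lipase, had 1 UMI in WT and 0 in KO, and Ctrb1 also had 1 and 0. Pnlip, the main triglyceride lipase, had 1 and 1, and Prss1 0 in WT and 4 in KO, of which 3 were in cluster 7. Amy2a5 had 0 in both, which allows up to 0.731 CPM in WT and 0.748 CPM in KO. No fold is given for Cel, Ctrb1, Pnlip and Amy2a5, since both genotypes were under the limit that a count of 0 allows. Prss1 and Amy2a5 belong to families of near-identical copies, and how reads shared between copies were counted is not stated in the labels.

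In the progenitor cluster, 3 of the 9 members (Cpa1, Clps and Cela1) were lower in KO by 2-fold or more and 0 higher. The other members there were Spink1, with 8 UMIs in WT and 4 in KO, and 5 genes with 0 UMIs, so 4 of the 9 had the 10 or more UMIs that the background requires. Among all 9762 genes with 10 or more UMIs there, 1.11% were lower and 2.45% higher by that much. With a minimum of 50 UMIs, which Cela1 did not reach, the members were 2 and the background was 1.07% of 4877 genes, with Cpa1 the lowest and Clps the eighth from the bottom. When both progenitor-like clusters were joined, the background was 1.02%, Cpa1 was again the lowest and Clps the seventh, at 195 UMIs in WT and 7 in KO. Cluster 6 gave 109 of these 195 WT Clps UMIs and had 50 WT and 2 KO cells, so the joined comparison was not balanced by cluster. Over all kept cells 1 member, Cpa1, was lower by 2-fold or more. Markers of other cells also differed between the genotypes inside cluster 3. The hepatobiliary list summed to 2184 CPM in WT and 4004 in KO, with 16 and 15 of its 16 genes detected and Sox17 at 0 in KO. The endocrine list summed to 119 and 352 CPM, with 14 and 13 of 17 genes detected and Pax4, Ins1 and Ins2 at 0 in both. The mesenchyme list was level, at 124 and 118 CPM, with 13 of 15 genes detected in each and Nkx3-2 at 0 in both. The progenitor list itself summed to 1962 and 2057 CPM, with 14 and 13 of 14 genes detected and Rbpjl at 0 in KO. Its genes moved both ways, with Mnx1 at 45.0 CPM in WT and 4.80 in KO and Gata4 at 22.0 and 55.9 CPM. The part of these markers in the member differences was not tested.

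Most other acinar genes had little or no RNA as well. Of a list of 41 further acinar genes 40 were in the table, 17 had a UMI in any kept cell and 23 had 0. Pla2g1b, a secreted phospholipase, was the single one with 50 or more UMIs, at 20 in WT and 33 in KO, a log2 difference of 0.29. Under that minimum, Pnliprp1 had 23 and 0 UMIs, Prss2 21 and 0, and Reg1 13 and 0 (these 3 genes were picked after their values were seen). Of the 10 acinar regulators 8 had 50 or more UMIs, and Ptf1a was the 1 that was lower by 2-fold or more over all kept cells. In cluster 3, Ptf1a and Xbp1, a factor of the secretory pathway, were lower by 2-fold or more, with Xbp1 at 106 CPM in WT and 41.6 in KO, and Gata4 was higher, at 22.0 and 55.9 CPM. Rbpjl, the acinar partner of Ptf1a, had 43 and 3 UMIs over all kept cells, under the minimum of 50, and is named outside the naming rule.

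The genes whose level ran most like that of Cpa1 over 15 groups of cells (cluster by genotype, at least 10 cells each) were Fxyd1 (Pearson r of log2 levels 0.93), Mnx1 (0.92), Kirrel2 (0.90), P2rx1 (0.89) and Polr2i (0.89), out of 10367 genes compared. P2rx1 had 144 UMIs in WT and 2 in KO, and Mnx1 had 108 and 6. For Clps they were Ffar2 (0.95), Slc25a5 (0.95), Spock1 (0.94), Hsbp1l1 (0.92) and Psmd4 (0.92). Ffar2 had 105 UMIs in WT and 109 in KO. Among the members, Cela1 ran with Cpa1 at r = 0.73, while Clps and Spink1 stood at 0.17 and -0.15. The 15 groups share 2 libraries and differ in depth, so these values are descriptions.

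Accessibility of the same genes was read from the ATAC tables. Each value is a gene score, in which every cell sums to 10000 over the 8269 genes. The score has no counts behind it, so its depth is unknown, and the labels do not state the window it covers. Scores are compared between genotypes and stages for 1 gene at a time, and across genes only as a rank order, given last. The E10.5 libraries held 838 WT and 700 KO cells with medians of 4846 and 5182 genes above 0, and the E13.5 libraries 2314 and 602 cells with 3454 and 4243. The barcode labels of the E13.5 libraries name different months for WT and KO, and this cannot be told apart from genotype. The 2 E13.5 libraries shared 2 barcode sequences.

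At E10.5 the genotype differences in score were all under 2-fold over all cells, with Spink1 and Cel near the bottom of all genes. Over all cells Cpa1 had a mean score of 1.78 in WT and 1.67 in KO, a log2 difference of -0.09 (above 26.5% of genes), and a score above 0 in 72.2% of WT (69.0 to 75.2) and 75.7% of KO cells (72.4 to 78.8). Clps stood at 1.28 and 1.36 (log2 0.09), Ctrb1 at 0.815 and 0.878 (0.11) and Cela1 at 1.10 and 1.27 (0.20, above 92.5% of genes). Cel was lower in KO, at 0.821 and 0.631 (log2 -0.38, the 106th lowest of 8219 genes), and so was Spink1, at 0.860 and 0.633 (-0.44, the 58th lowest). In all, 3 of 6 members were lower in KO, and 50.4% of these genes were. Ptf1a itself stood at 2.43 and 1.70 (log2 -0.51), the 31st lowest of these genes.

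The Cel difference moved with cluster, with depth and with 1 cell. In the large cluster 0 (575 WT and 503 KO cells) Cel was 0.613 and 0.641, and in cluster 1, with a median of 1679 genes above 0, it was 1.40 and 0.505. A single WT cell of cluster 1 scored 90.0. Without the highest cell of each genotype within cluster 1, its means were 0.962 and 0.441. Without the highest cell of each library the all-cell log2 difference was -0.22. The all-cell Cel value turned to 0.06 when the tenth of cells with the fewest and the tenth with the most genes above 0 were both dropped. When 1 end was dropped over both libraries together, it was 0.04 without the tenth of cells with the fewest genes above 0 and -0.39 without the tenth with the most. The corresponding Spink1 values were -0.23 and -0.48, and Clps turned to -0.01 without the shallow cells. These 1-end and highest-cell values were added after the data were seen. Spink1 kept its sign in cluster 0, at 0.891 and 0.723 (log2 -0.30), and was lowest in the endocrine-like cluster 2, at 0.328 and 0.363. Endocrine-like cells held little Cpa1 RNA. In the endocrine-like cluster 2 Cpa1 scored 1.71 in WT and 1.98 in KO, beside 1.80 and 1.60 in cluster 0. Clps was at 1.59 and 1.62 there, above its cluster 0 means of 1.31 and 1.36.

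From E10.5 to E13.5 in WT, Clps and Ctrb1 had the largest increases in mean score of the 6 members. Their scores went from 1.28 to 1.96 (log2 0.61) and from 0.815 to 1.32 (log2 0.69), which stood above 98.6% and 99.3% of 8242 genes. Cpa1 went from 1.78 to 1.91, Cel from 0.821 to 0.888 and Cela1 from 1.10 to 1.14, and Spink1 went down from 0.860 to 0.544 (log2 -0.66). By mean score 5 of 6 members were higher at E13.5, and 50.9% of genes were. The 2 stages were scaled in separate tables, so these values stand side by side and were not compared by a test. By the share of cells above 0, which moves with depth, Clps went down instead, from 50.4% to 41.4%, and Ctrb1 was near level, from 46.2% to 45.7%.

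**Figure D4:**
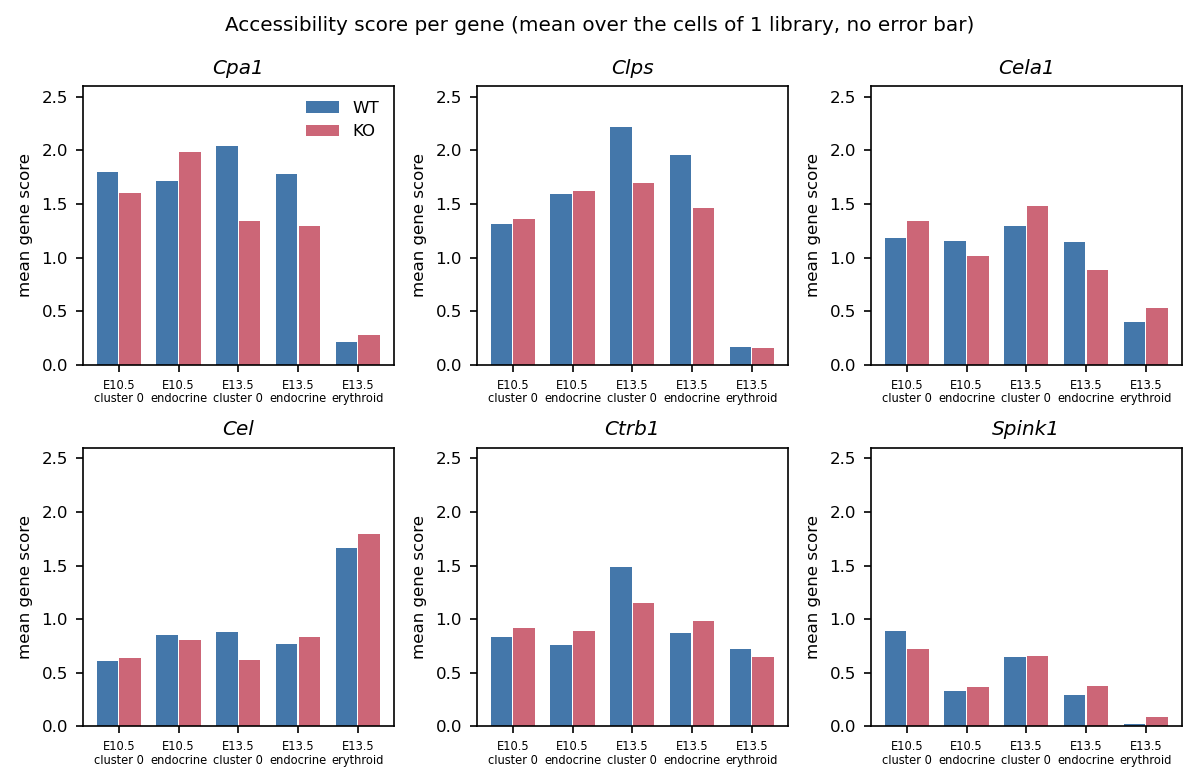
Mean gene score (vertical axis, scaled signal with every cell summing to 10000) of the 6 members in the ATAC tables, WT in blue and KO in red, for cluster 0 and the endocrine-like cluster at each stage and the erythroid-like cluster at E13.5; bars are means over the cells of 1 library, without error bars. At E13.5 Cpa1 and Clps are lower in KO in cluster 0, with 2.04 against 1.34 and 2.22 against 1.70, and Cel is highest in the erythroid-like cells of both genotypes.

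At E13.5 the scores of Cpa1 and Clps were lower in KO. Over all cells Cpa1 stood at 1.91 in WT and 0.841 in KO (log2 -1.19), the 39th lowest of 8208 genes, and Clps at 1.96 and 0.969 (-1.01). Ctrb1 (1.32 and 0.993), Cela1 (1.14 and 0.956) and Spink1 (0.544 and 0.373) were also lower, and Cel was higher, at 0.888 and 1.14. Thus 5 of 6 members were lower, beside 52.7% of genes. The erythroid-like cluster 3 held 140 WT and 272 KO cells, and its scores were low for Cpa1 (0.215 and 0.277) and Clps (0.166 and 0.158) and high for Cel (1.67 and 1.79). Without this cluster the Cpa1 difference was -0.63, that of Clps -0.34, and that of Cel turned to -0.46, and Cela1 and Spink1 turned to 0.14 and 0.08.

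The large E13.5 cluster 0 (1060 WT and 236 KO cells) was led by Sdc4, Hoxa4 and Hoxb7 and left without a name. Its best marker list was trunk/duct (mean log2 ratio 0.60, 9 of 9 markers raised), and Rbpjl and Hhex were also in its top 10. Within this cluster 4 of 6 members were lower in KO, beside 50.5% of 8229 genes. Cpa1 was at 2.04 and 1.34 (log2 -0.61), Clps at 2.22 and 1.70 (-0.39), Cel at 0.877 and 0.623 (-0.49) and Ctrb1 at 1.49 and 1.15 (-0.37), each under 2-fold. Cela1 was higher, at 1.30 and 1.48, and Spink1 level, at 0.646 and 0.656. Ptf1a was at 4.63 and 1.95 (-1.25), the second lowest of all genes. The KO cells here had more genes above 0, a median of 5892 against 4309, and the share of cells above 0 was higher in KO for all 6 members, for Cpa1 80.9% against 74.1%. In cells between the quartiles of genes above 0 (573 WT and 75 KO), a subset added after the data were seen, the log2 differences were -0.34 for Cpa1, -0.37 for Clps, -0.73 for Cel and -0.90 for Ctrb1, and they were 0.07 for Cela1 and 0.38 for Spink1. In the endocrine-like cluster 2 (379 and 50 cells) 3 members were lower in KO and 3 higher. Cpa1 was at 1.78 and 1.29, Clps at 1.95 and 1.46 and Cela1 at 1.14 and 0.889, while Cel was at 0.765 and 0.837, Ctrb1 at 0.868 and 0.983 and Spink1 at 0.292 and 0.374. In this cluster 50.6% of 8218 genes were higher in KO.

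Of the 41 other acinar genes 6 were in the ATAC tables. At E10.5 over all cells 3 were lower in KO and 3 higher, from Cckar, the cholecystokinin receptor of acinar cells (log2 -0.22), to Pnliprp1 (0.08), and their median was -0.07 against 0.00 for all genes. At E13.5 in cluster 0 all 6 were lower, from Cckar at 1.24 and 0.586 (-1.08) to Prss2 at 0.771 and 0.733 (-0.07), with a median of -0.41. Of 8229 genes 50.5% were lower in this cluster, with a median of -0.003, and its KO cells had more genes above 0 (median 5892 against 4309). The 6 members there had a median of -0.38. In the E13.5 endocrine-like cluster, with 50 KO cells and 50.6% of all genes higher in KO, 6 of these 6 genes were higher, from Cckar, near level at 0.885 and 0.899 (log2 0.02), to Reg1 at 0.187 and 0.852 (2.19).

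In WT at E10.5 the order of the 6 members by RNA was close to their order by gene score, while the genotype differences in RNA and score were unlike. RNA levels were not divided by gene length, and whether the score is scaled to it is not stated, so the order is a description. Ordered by RNA the WT members were Clps (193 CPM), Cpa1 (128), Cela1 (13.1), Spink1 (11.9), and Cel and Ctrb1 (0.244 each). Their mean scores in that order were 1.28, 1.78, 1.10, 0.860, 0.821 and 0.815, a Spearman correlation of 0.93 over 6 genes, which share 1 RNA and 1 ATAC library. Ctrb1, with 1 RNA molecule in 451 cells, had a score above 0 in 46.2% of WT cells. The median WT cell had 4846 of 8269 genes above 0, and the Ctrb1 mean score stood above 30.7% of genes, so its score was low among genes. Between genotypes, Cpa1 differed by -3.68 (log2) in RNA and by -0.09 in the E10.5 score, and Cela1 by -0.98 and 0.20. Spink1 had the reverse pattern by mean score, with -0.06 in RNA and -0.44 in the score. Its share of cells above 0 was near level, at 49.4% in WT and 48.3% in KO.

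**Figure D5:**
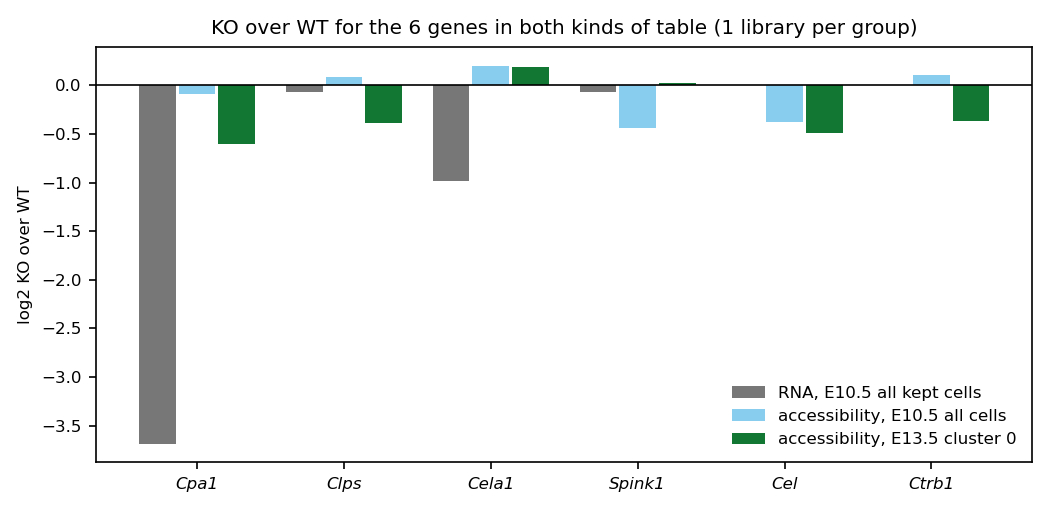
Log2 of KO over WT (vertical axis) for the 6 members in both kinds of table: RNA at E10.5 (grey, with 10 CPM added), mean gene score at E10.5 (light blue) and in cluster 0 at E13.5 (green), 1 library per group and no error bars. Cpa1 has -3.68 in RNA and -0.09 in the E10.5 score; no RNA bar is drawn for Cel and Ctrb1, which had 1 UMI in all.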

How the data were processed

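Raw UMI counts per gene and cell were deposited for the RNA libraries as whole numbers, per the file headers, and the authors' ATAC tables hold a scaled gene-level accessibility signal, in which every cell sums to 10000. The RNA kit was a 10x 3′ v3 kit, which reads 1 tag per molecule, so levels were not divided by gene length. The build was mm10, per the submitters' processing notes, while no source used here gives the aligner or the score tool. The number of columns belonging to no sample was 0.

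RNA cells with 1000 or more genes were kept, and doublets (scrublet) were called and kept. Clustering used scanpy 1.11.5 (2000 variable genes, 30 principal components, 15 neighbours) and leidenalg 0.10.2, with a Leiden resolution of 0.5 for RNA and 0.3 for ATAC. It left out 51 genes, namely the members, the list of other acinar genes and Ptf1a. The acinar regulators other than Ptf1a were not left out. Of these, Rbpjl, Nr5a2 and Gata4 were also in the progenitor marker list, so the clusters and their names are not independent of the regulators. A cluster was named when a marker list had a mean log2 ratio of 0.3 or more, 3 or more of its markers were up, and no other list had more of the top 10 genes. Names were rebuilt here. Intervals (scipy 1.17.1) are exact Poisson, Clopper-Pearson or conditional intervals at 95%. For zero counts the limit is 3 counts over the group. RNA ratios are plain ratios of CPM, while log2 differences add 10 CPM to each level, which understates the change of low genes. ATAC ratios are of mean scores, for genes above 0 in at least 10% of cells.

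The members and lists were chosen with earlier results of these data known. Apart from cluster markers, the naming rule took the 9 members, Ptf1a, other acinar genes with 50 or more UMIs or with the highest or lowest ATAC ratio, and the 5 genes most like Cpa1 and most like Clps. Pnliprp1, Prss2 and Reg1 in the RNA, and the regulators Xbp1, Gata4 and Rbpjl, are named outside this rule. The E13.5 epithelial cluster was defined in 2 ways, as the largest and as the one with the highest regulator mean, which named different clusters. The largest was used and the other is an alternative. The ratios and thinning were tested on simulated data. Alternatives were other resolutions, cell filters, scalings, pseudocounts, thinning and doublet removal, trimming of cells, and shares in place of means.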

Additional observations from a re-analysis of the deposited data

Results flagged for a closer look

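The KO over WT ratio of Clps RNA ran in opposite directions in different cells of the same 2 libraries. It was 1.59 in the hormone-rich endocrine-like cluster 7 (54 UMIs in WT and 176 in KO). It was 0.0385 in cluster 0, 0.616 in cluster 1, 0.119 in the progenitor cluster 3 and 0.802 in cluster 4, and cluster 2 had 43 UMIs in WT and 0 in KO. With 1 library per genotype the difference between clusters was not tested.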

How the results depend on the processing

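No paired analysis was possible because each group had 1 library, so the replicate numbers in the labels pair nothing that could be compared within a group. Over all kept cells 1 member was lower by 2-fold or more, and this count was 2 (Cpa1 and Cela1) with cells of 2000 or more genes, with median-of-ratios scaling or with 1 CPM added, and 3 (Clps also) without the endocrine-like clusters and cluster 4. In the progenitor cluster the count of 3 became 2 in thinned cells, where the log2 difference of Cela1 reversed to 0.38, and 2 without doublets. The number of members with their highest WT level in the progenitor cluster was 1 and became 2 at resolution 0.3. By the share of cells above 0 in place of the mean score, members lower in KO fell from 3 to 1 at E10.5, from 5 to 2 over all cells at E13.5 and from 4 to 0 in its cluster 0, and members higher at E13.5 in WT went from 5 to 0. Depth was then not equal between the libraries. The Spearman correlation of RNA with accessibility was 0.93 by mean score and 0.81 by that share. The cause of these changes was not tested. Chosen after seeing the data, both progenitor-like clusters together gave 3 members, and at E13.5 the cluster with the highest regulator mean (735 WT and 44 KO cells) and the cells between the quartiles each gave 4, with Ctrb1 at 0.69 in the first and -0.90 in the second. Cpa1 RNA kept its sign under all 7 alternatives over all kept cells (log2 -6.21 to -3.55) and all 8 in the progenitor cluster (-8.07 to -4.45). The scaled ATAC signal gives no depth, and below 3 UMIs per group the RNA could not separate silence from a low level.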
